A study of Mus musculus with 23 samples.

Results

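Genes of the contractile apparatus and of mesenchymal cells were followed in RNA of wild type and Bach1 -/- mouse embryonic stem cells. BACH1 is a transcription factor that binds heme. There were 10 of them, taken by gene symbol from a table of 25124 genes: Tagln, Tagln2, Cnn2, Acta2, Myl9, Tpm1, Tpm2, Thy1, Mmp2 and Loxl1. Each symbol had 1 row in the table. The cells were E14Tg2A embryonic stem cells on gelatin, in medium with serum and leukemia inhibitory factor. One group was wild type (WT), and the other was Bach1 -/- (knockout), made by CRISPR/Cas9, with 3 polyA RNA libraries per genotype. The design text calls them biological triplicates. The labels do not say whether the knockout cells are 1 clone, so differences between clones and the loss of BACH1 cannot be told apart. The other 17 of the 23 samples of the series were chromatin samples and are not analysed here.

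Smooth muscle cells, myofibroblasts and other mesenchymal cells build actin filaments that myosin pulls on, and proteins such as transgelin, calponin and tropomyosin sit on those filaments. Many of these genes carry a CArG box, the DNA element bound by serum response factor (SRF), whose partners of the MRTF family are held back by unpolymerized actin. Mesenchymal cells also carry surface proteins such as THY1 and secrete enzymes that cut or crosslink the matrix. Pluripotent stem cells express much of the general actin cytoskeleton but are not known as contractile cells.

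Because the genes moved together, the DNA before their starts is shown for the pair with an exact CArG match and for the smooth muscle actin gene. RefSeq windows of the build GRCm38.p6, from 250 bases before to 50 bases after the start, were given for 6 of the 10 genes: Tagln2, Acta2, Myl9, Tpm1, Tpm2 and Cnn2. Capitals in Myl9 and Cnn2 mark the CArG box, and capitals in Acta2 mark GGAATG, the core of the MCAT element bound by TEAD factors. All are written 5′ to 3′ on the gene's strand.
Myl9, chr2:156775214-156775513, plus strand: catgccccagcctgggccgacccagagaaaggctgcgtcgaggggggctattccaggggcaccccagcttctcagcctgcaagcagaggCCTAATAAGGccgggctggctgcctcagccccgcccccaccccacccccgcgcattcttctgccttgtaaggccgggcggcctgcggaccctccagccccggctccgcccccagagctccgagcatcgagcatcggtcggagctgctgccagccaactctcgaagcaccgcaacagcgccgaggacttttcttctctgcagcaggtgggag
Cnn2, chr10:79988350-79988649, plus strand: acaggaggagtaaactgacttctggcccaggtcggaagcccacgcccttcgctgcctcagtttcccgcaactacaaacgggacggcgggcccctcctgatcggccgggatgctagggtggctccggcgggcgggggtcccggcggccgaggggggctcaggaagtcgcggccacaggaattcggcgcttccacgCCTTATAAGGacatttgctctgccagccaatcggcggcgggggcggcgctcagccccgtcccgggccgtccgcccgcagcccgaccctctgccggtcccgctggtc
Acta2, chr19:34255324-34255623, minus strand: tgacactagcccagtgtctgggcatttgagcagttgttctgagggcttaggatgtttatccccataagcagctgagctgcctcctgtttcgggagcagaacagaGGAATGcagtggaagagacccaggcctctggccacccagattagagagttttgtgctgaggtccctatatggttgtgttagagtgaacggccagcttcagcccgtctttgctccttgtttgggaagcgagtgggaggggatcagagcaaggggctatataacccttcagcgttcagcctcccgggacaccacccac

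The CArG box, whose pattern is the same on both strands, was found by exact match in 2 of the 6 windows, against 1.63% of 32851 windows in the whole table. The pattern was CC, 6 letters A or T, and GG. Stretches with a mismatch were not counted in any window. The Acta2 window holds such stretches, ccctatatgg and ccttgtttgg, and the Tpm1 window holds ccatatatag and ccaaaaaagt, each a single letter off the pattern. The lack of an exact match in a window thus does not show that it lacks a CArG box. The exact match began 161 bases before the start of Myl9 and 56 bases before that of Cnn2. GGAATG on either strand was found in 3 of the 6, against 14.7% of all windows, at 146 bases before the start of Acta2, 56 before that of Tpm1, and 118 and 80 before that of Tagln2. TGAGTCA on either strand, the core of the element that BACH1 binds with small MAF proteins and that AP-1 also binds, was found in 0 of the 6 and in 5.20% of all windows. No matches overlapped each other in the 6 windows, and a match describes the letters only. Of the 10 genes, 4 lie on chromosome 9 (Tagln, Tpm1, Thy1 and Loxl1), which holds 5.58% of the 12030 tested genes with a chromosome in RefSeq. Of the tested genes on chromosome 9, 23.5% were called higher in the knockout (as defined below), against 28.3% of all tested genes.

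Values are TPM, a share of the library's transcripts that is scaled by transcript length, so levels can be compared between genes. The number of reads behind them is unknown, and with it the counting error. Sums over the table lay between 604964 and 606200 TPM. A log2 fold change subtracts WT from knockout values of log2(TPM + 1), on which low genes change less than in TPM. Adjusted p-values are limma's with Benjamini-Hochberg adjustment over the 12196 genes that reached 1 TPM in 3 or more of the 6 libraries. A call is an adjusted p under 0.05. Bach1 RNA was 2.52 ± 0.177 TPM in WT and 1.83 ± 0.188 in the knockout (SD, n = 3). Its log2 fold change was -0.31 (limma, adjusted p = 0.00282), and the call ended with median-of-ratios scaling, at -0.17 (adjusted p = 0.0545). Bach1 RNA was thus still present in the knockout, and its level does not by itself show the loss of BACH1. Over all tested genes the median log2 fold change, -0.20, moved to -0.02 with that scaling.

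RNA of the contractile and mesenchymal genes was higher in the knockout. All 10 were called higher, against 28.3% of all tested genes, and in each the 3 knockout libraries lay above the 3 WT libraries, against 28.8%. The 10 were chosen with earlier results of these data known, so these counts do not test them as a group. Of the 10, Acta2, Myl9 and Loxl1 passed the filter on low values only through the knockout libraries and so had to differ. The remaining 7 were all called as well. Without the filter, the 10 were again called higher, and 23.5% of 20190 genes were. At least 2-fold rises on the log2(TPM + 1) scale were seen in 8 of them and in 6.63% of all tested genes. The log2 fold changes ran from 0.44 to 3.34 with a median of 1.56, or from 0.64 to 3.55 relative to the median of all genes. In such bulk RNA, more cells that express a gene and more RNA per cell cannot be told apart.

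**Figure D1:**
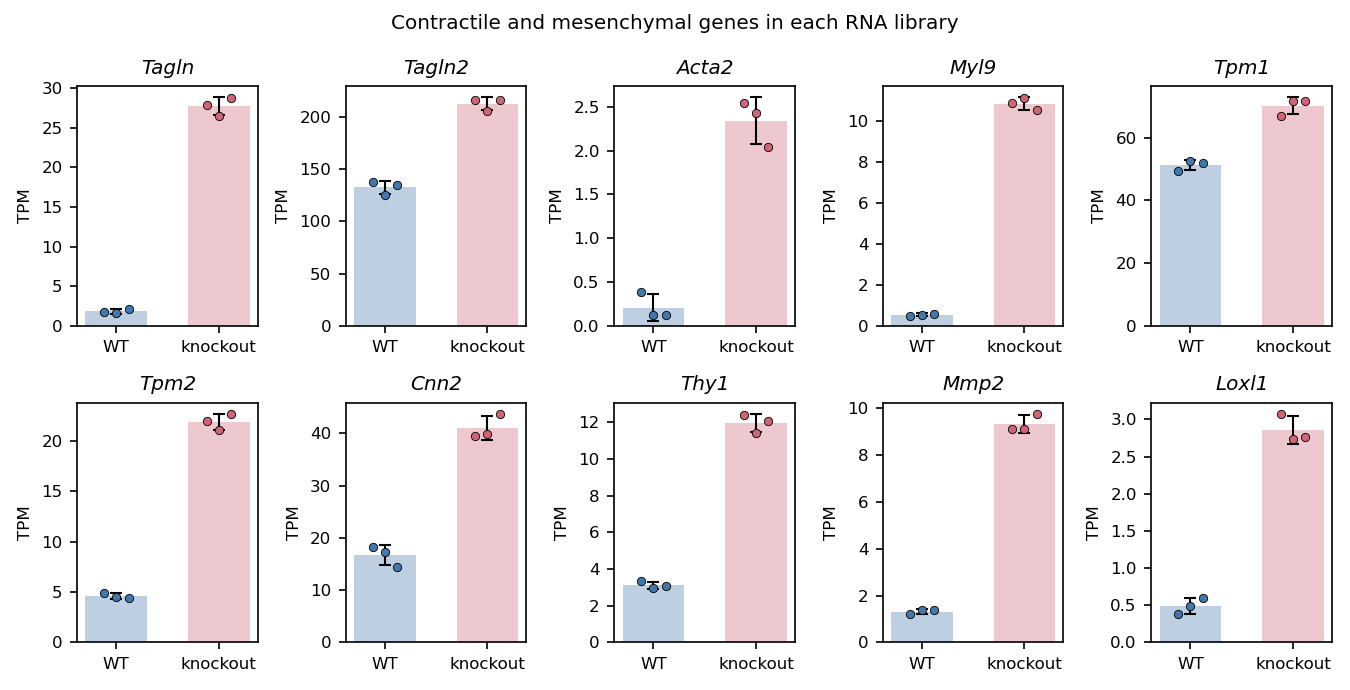
TPM of the 10 genes in each library, with bars at the mean of 3 libraries, error bars of 1 SD and points for single libraries, on a separate linear axis from 0 for each gene. No knockout point falls to the level of a WT point in any panel, and the ratio of the means ran from 1.37 in Tpm1 to 19.8 in Myl9.

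The actin-binding proteins of the transgelin and calponin group all rose, by very different amounts. Tagln encodes transgelin (SM22), an early marker of smooth muscle that binds along actin filaments. WT libraries 1, 2 and 3 had 1.73, 1.62 and 2.14 TPM, and knockout libraries 1, 2 and 3 had 27.9, 26.5 and 28.7 TPM. All WT libraries were near the expression limit used here and all knockout libraries well above it, with no overlap. The mean went from 1.83 ± 0.277 to 27.7 ± 1.12 TPM, a ratio of 15.1. On the log2 scale the change was 3.34 (SE 0.0723, adjusted p = 7.55e-10). It was the 29th largest log2 fold change of the 12196 tested genes.

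Tagln2, the transgelin of non-muscle cells, was already abundant in WT cells. Its levels were 137, 125 and 135 TPM in WT and 215, 205 and 216 TPM in knockout libraries. Each knockout library lay above each WT library, and both groups spread little around their means. The log2 fold change was 0.68 (SE 0.0371, adjusted p = 2.08e-07). Cnn2 encodes calponin 2, a calponin found in many non-muscle cells that binds actin and dampens myosin activity. It went from 18.2, 17.4 and 14.5 TPM in WT to 39.5, 39.9 and 43.7 TPM in knockout libraries. The WT libraries spread over about the same number of TPM as the knockout ones, and the groups stood well apart. The log2 fold change was 1.25 (SE 0.0773, adjusted p = 4.54e-07).

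The actin and myosin genes were the lowest of the contractile genes in WT cells. Acta2, the smooth muscle actin used to mark myofibroblasts, was at 0.384, 0.122 and 0.122 TPM in WT and at 2.55, 2.43 and 2.04 TPM in knockout libraries. It stayed the lowest of the 10 genes in both genotypes. Its log2 fold change of 1.47 (SE 0.101, adjusted p = 9.44e-07) depended on the pseudocount, at 3.08 with 0.1 TPM and 0.49 with 5 TPM, and was called with each. The coding sequences of the muscle actins are nearly identical, so its level is uncertain where reads were shared. Myl9, a regulatory light chain of smooth muscle and non-muscle myosin, was at 0.485, 0.553 and 0.605 TPM in WT and at 10.9, 11.1 and 10.5 TPM in knockout libraries. Its knockout level came close to that of Thy1, from which it had been far away in WT cells. The ratio of the means, 19.8, was the highest of the 10 genes, and the log2 fold change was 2.94 (SE 0.0579, adjusted p = 4.52e-10), or 1.51 with a pseudocount of 5 TPM.

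Both tropomyosin genes, whose coiled-coil products lie along actin filaments and control access of myosin, rose. Tpm1 was high in each library, at 49.3, 52.5 and 51.9 TPM in WT and 66.9, 71.7 and 71.6 TPM in the knockout. Its log2 fold change of 0.44 (SE 0.0372, adjusted p = 3.61e-06) was the smallest of the 10. RefSeq lists 10 curated transcripts of Tpm1 and 3 of Tpm2, and the table holds 1 row each, so muscle and non-muscle isoforms of these genes were not separated. Tpm2 rose from 4.90, 4.48 and 4.36 to 21.9, 21.0 and 22.6 TPM. Its groups lay far apart relative to their spread, and the log2 fold change was 2.04 (SE 0.0522, adjusted p = 2.00e-09).

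The surface and matrix genes rose from low levels. Thy1, a surface glycoprotein anchored by a lipid and used to mark fibroblasts, was at 3.33, 2.95 and 3.06 TPM in WT and 12.4, 11.4 and 12.1 TPM in knockout libraries (log2 fold change 1.66, adjusted p = 1.01e-08). Mmp2, the gelatinase that degrades basement membrane collagen, was at 1.21, 1.37 and 1.36 TPM in WT and 9.09, 9.10 and 9.75 TPM in knockout libraries (log2 fold change 2.16, adjusted p = 2.82e-09). With a pseudocount of 5 TPM, the change was 1.06 for Thy1 and 1.18 for Mmp2. Loxl1, a lysyl oxidase that crosslinks elastin, was at 0.388, 0.494 and 0.602 TPM in WT and 3.08, 2.74 and 2.77 TPM in knockout libraries. It shared the lowest places with Acta2 in the knockout, and its log2 fold change of 1.37 (adjusted p = 1.99e-07) was 2.33 with a pseudocount of 0.1 TPM and 0.52 with one of 5.

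The order of the levels changed little at the top and bottom. In WT cells it ran from Tagln2 and Tpm1 through Cnn2, Tpm2, Thy1, Tagln and Mmp2 to Myl9, Loxl1 and Acta2. Among neighbours in that order, the WT libraries of Myl9 and Loxl1 overlapped and those of the other pairs did not. In the knockout, Tagln stood above Tpm2, and Myl9 stood above Mmp2. Among all 12196 tested genes, Tagln moved from rank 10338 to rank 2654 by mean TPM, Myl9 from 11854 to 4971, and Tagln2 from 643 to 361. In the deposited list of knockout-higher transcripts, which holds no change below 1 on the log2 scale, 8 of the 10 genes appeared, without Tagln2 and Tpm1. The authors' deposited table gives a log2 fold change of 4.01 for Tagln (p = 6.51e-06), 4.30 for Myl9 (p = 1.43e-06) and 4.32 for Acta2 (p = 0.00271), and its pseudocount and any adjustment of p are not stated.

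Related genes of the same families were then compared, because their shares do not depend on the scaling between libraries. Shares are percentages of the family's summed TPM, as means ± SD over 3 libraries, and an exact two-sided permutation test of 3 against 3 libraries cannot go below p = 0.1. All shares given below for the transgelins, calponins, tropomyosins, light chains and gelatinases had p = 0.1 in that exact permutation test, with no overlap between the genotypes.

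Among the transgelins, Tagln took 1.28 ± 0.163% of the RNA in WT and 11.1 ± 0.143% in the knockout. Tagln2 fell from 92.8 ± 0.244% to 85.0 ± 0.450% of the family although its TPM rose. Tagln3, the neuronal transgelin, took 5.94 ± 0.0848% and 3.90 ± 0.420%. The level of Tagln3 was 8.48 ± 0.427 and 9.72 ± 0.977 TPM, a log2 fold change of 0.17 whose call (adjusted p = 0.0469) ended with no filter on low values (adjusted p = 0.0824), with no variance trend (adjusted p = 0.0606) and without WT replicate 1, 2 or 3 or knockout replicate 2 or 3 (adjusted p from 0.0542 to 0.161). With median-of-ratios scaling and quantile normalization its change was larger, at 0.37 and 0.40, and was called. The family as a whole rose from 143 ± 6.86 to 249 ± 7.11 TPM.

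In the calponins, RNA shifted from Cnn3 to Cnn2. Cnn2 took 9.09 ± 1.01% in WT and 34.7 ± 0.884% in the knockout, and Cnn3, the acidic calponin of non-muscle cells, 90.8 ± 1.01% and 62.8 ± 1.02%. Cnn3 itself fell from 167 ± 2.59 to 74.2 ± 1.54 TPM (log2 fold change -1.16, adjusted p = 7.81e-10). Cnn1, the calponin of differentiated smooth muscle, rose from 0.258 ± 0.0790 to 2.88 ± 0.246 TPM (log2 fold change 1.62, adjusted p = 7.52e-08), or by 3.08 with a pseudocount of 0.1 TPM and 0.58 with one of 5. The summed calponin RNA was lower in the knockout, at 118 ± 3.87 against 184 ± 2.85 TPM.

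In the tropomyosins, Tpm1 went from 14.5 ± 0.317% to 22.6 ± 0.539% and Tpm2 from 1.30 ± 0.107% to 7.06 ± 0.287% of the family. Tpm3, the most abundant tropomyosin gene in both genotypes, went from 72.1 ± 0.867% to 55.4 ± 0.389%. Its RNA fell from 255 ± 8.33 to 172 ± 1.45 TPM (log2 fold change -0.57, adjusted p = 7.13e-08). Tpm4, a non-muscle tropomyosin, took 11.3 to 12.8% in WT and 14.7 to 15.1% in knockout libraries, with a log2 fold change of 0.12 (adjusted p = 0.0149). That call ended without WT replicate 3 (adjusted p = 0.0545) and without knockout replicate 2 (adjusted p = 0.0502). With median-of-ratios scaling the change was -0.36 for Tpm3 and 0.32 for Tpm4.

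Myl9 remained a minor part of the regulatory light chains, at 0.135 ± 0.0182% in WT and 4.01 ± 0.0953% in the knockout. Its close relatives Myl12a and Myl12b, the light chains of non-muscle myosin, did not move alike. Myl12a was at 143 ± 6.49 and 143 ± 1.96 TPM, with a log2 fold change of 0.00 (adjusted p = 0.988) that became 0.21 with median-of-ratios scaling (adjusted p = 0.000237) and 0.15 with quantile normalization (adjusted p = 0.00365). Myl12b fell from 264 ± 7.47 to 117 ± 0.917 TPM (log2 fold change -1.17, adjusted p = 7.18e-10). The summed light chain RNA was 407 ± 10.6 TPM in WT and 270.4 ± 2.71 TPM in the knockout, so the rise of Myl9 came with less RNA for the family.

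Smooth muscle actin was a trace of the actin RNA in both genotypes, at 0.0125 ± 0.00895% in WT and 0.126 ± 0.0145% in the knockout (exact permutation p = 0.1). Actb and Actg1, the cytoplasmic actins, made up nearly all of it. Actg1 rose from 779.9 ± 11.2 to 939.9 ± 6.84 TPM (log2 fold change 0.27, adjusted p = 6.18e-07, or 0.48 with median-of-ratios scaling). Actb was at 885 ± 9.19 and 912 ± 5.67 TPM, with a log2 fold change of 0.04 (adjusted p = 0.0357) that turned to -0.01 with quantile normalization (adjusted p = 0.527) and was 0.25, and called, with median-of-ratios scaling. Its call also ended with no filter on low values (adjusted p = 0.0514), with no variance trend (adjusted p = 0.253) and without WT replicate 2 or 3 or any of the knockout replicates 1, 2 and 3 (adjusted p from 0.0637 to 0.116). Acta1, skeletal muscle actin, rose from 0.0907 ± 0.0414 to 7.21 ± 0.580 TPM (log2 fold change 2.91, adjusted p = 1.48e-09, or 5.28 and 1.26 with pseudocounts of 0.1 and 5 TPM), and exceeded Acta2 in the knockout. Actc1, cardiac actin, and Actg2, the gamma actin of smooth muscle, stayed below 1 TPM in every library and were not tested. Actb, Actg1 and Tpm3 have processed pseudogenes, so their levels are uncertain where reads were shared.

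Loxl1 took 10.4 ± 2.05% of the lysyl oxidase RNA in WT and 47.1 ± 2.18% in the knockout (exact permutation p = 0.1). Loxl3 fell from 2.98 ± 0.125 to 2.22 ± 0.0304 TPM (log2 fold change -0.31, adjusted p = 0.000766, or -0.15 with median-of-ratios scaling), and its share went from 63.0 ± 4.32% to 36.5 ± 0.438%. Loxl2, Loxl4 and Lox, the founding member of the family, did not pass the filter on low values. The other gelatinase, Mmp9, rose from 0.405 ± 0.00709 to 1.45 ± 0.123 TPM (log2 fold change 0.80, adjusted p = 2.85e-06), and Mmp2 rose from 76.4 ± 1.08% to 86.5 ± 1.40% of the pair. The change of Mmp9 was 1.61 with a pseudocount of 0.1 TPM and 0.25 with one of 5. Like Loxl1, Mmp9 passed the filter only through the knockout libraries and so had to differ.

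**Figure D2:**
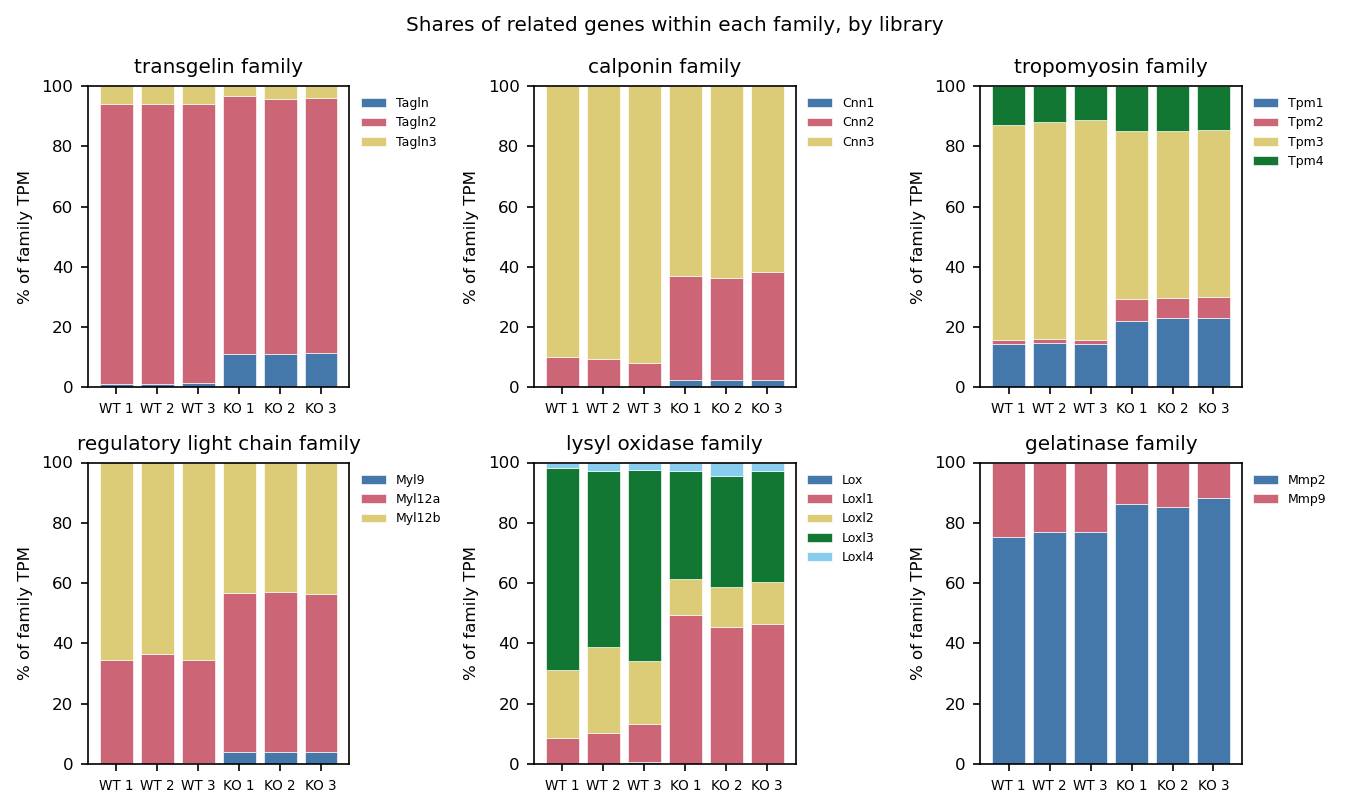
Share of each gene in the summed TPM of its family, in percent from 0 to 100, as stacked bars for the 3 WT and 3 knockout (KO) libraries. Tagln, Cnn2, Tpm1, Tpm2, Myl9, Loxl1 and Mmp2 take a larger share in every knockout library than in any WT library, while Tagln2, Cnn3, Tpm3, Myl12b and Loxl3 take a smaller one.

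The wider set of contractile and actin-binding genes did not move in 1 direction. Of 27 such genes, 22 were tested, 13 were called higher and 6 lower, and the median log2 fold change was 0.15, against -0.20 over all tested genes. These are 59.1% and 27.3% of the tested genes of the list, against 28.3% called higher and 54.8% called lower over all tested genes, the shares against which the lists that follow are also set. Acta1 and Cnn1, among the 13, had passed the filter only through the knockout libraries. Vim, the intermediate filament protein vimentin that marks mesenchymal cells, fell from 153 ± 1.84 to 23.6 ± 1.25 TPM (log2 fold change -2.64, adjusted p = 8.48e-11), the opposite direction to the 10 genes. Actg2, Actc1, Myh11, Mylk and Lmod1, which smooth muscle or heart cells express highly, were below 1 TPM in every library.

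Of 23 genes of the SRF pathway and of the response to TGF-beta, a growth factor that drives myofibroblasts, 18 were tested, 6 were called higher (33.3%) and 10 lower (55.6%), with a median of -0.23. Both shares and the median were close to those of all tested genes, at 28.3%, 54.8% and -0.20. Of the 18, 3 had passed the filter through a single genotype. Srf itself rose from 8.78 ± 0.195 to 18.0 ± 0.451 TPM (log2 fold change 0.96, adjusted p = 3.89e-08). Tgfb1, the ligand, rose from 4.12 ± 0.276 to 17.0 ± 0.813 TPM (log2 fold change 1.82, adjusted p = 6.39e-09), and Fhl1, a LIM-domain protein of muscle, from 6.77 ± 0.0585 to 12.9 ± 0.0743 TPM. Rhob, a small GTPase that regulates actin, fell from 56.3 ± 0.496 to 28.6 ± 0.791 TPM (log2 fold change -0.96). Myocd, the muscle partner of SRF, was below 1 TPM in every library.

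Matrix proteases, their inhibitors and matrix-modifying enzymes gave 6 higher and 5 lower among 12 tested of 18, with a median of 0.42. The shares were 50.0% higher and 41.7% lower, against 28.3% and 54.8% of all tested genes. Of these 12, 2 had passed only through the knockout libraries and so had to differ, Mmp9 and Timp3. Among the others, 4 were called higher and 5 lower. Mmp14, the membrane protease that activates pro-MMP2, rose from 4.33 ± 0.156 to 9.25 ± 0.119 TPM (log2 fold change 0.94, adjusted p = 1.33e-07, or 0.61 with a pseudocount of 5 TPM), in the same direction as Mmp2. Timp1, an inhibitor of matrix metalloproteinases, fell from 110.5 ± 0.900 to 47.0 ± 1.85 TPM (log2 fold change -1.22, adjusted p = 2.21e-09). The inhibitors Timp2 and Timp3 rose from lower levels. Timp2 went from 0.797 ± 0.218 to 2.31 ± 0.183 TPM (log2 fold change 0.89, adjusted p = 1.84e-05). Timp3 went from 0.531 ± 0.121 to 2.20 ± 0.0497 TPM (log2 fold change 1.07, adjusted p = 9.62e-07). Fbln1, the matrix protein fibulin 1, fell by 1.32 on the log2 scale and P4ha1, a collagen prolyl hydroxylase, fell by 1.30.

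Fibroblast markers, which also mark the feeder cells of some stem cell cultures, did not rise as a group with the 10 genes, and the most abundant of them fell. Of 20 such markers outside the 10, 14 were below 1 TPM in every library, among them Col1a1, Col1a2, Col3a1, Dcn, Lum, Postn and Prrx1, and Fap was at 0 in every library. Of the 6 tested, 4 were called lower and 1 higher, with a median log2 fold change of -1.20, and 2 had passed through a single genotype. The lower ones were 66.7% of the 6, against 54.8% of all tested genes, and the higher one, Twist1, was 16.7%, against 28.3%. Twist1 passed the filter only through the knockout libraries and Pdgfrb only through the WT libraries, so both had to differ. Without WT replicate 1, 2 were called higher. The summed TPM of the 20 markers ranged from 468 to 473 in WT and from 150.3 to 152 in knockout libraries. Nearly all of it came from Vim, Fn1 and Sparc, and the other 17 markers summed to between 5.80 and 6.16 TPM in WT and between 6.30 and 6.87 TPM in knockout libraries. Among the markers below 1 TPM, Col6a2, a collagen VI chain, was at 0.0107 ± 0.00929 TPM in WT and 0.833 ± 0.128 in the knockout, Col6a1 at 0.0553 ± 0.0208 and 0.144 ± 0.0340, and the fibrillin gene Fbn1 at 0.0773 ± 0.0313 and 0.203 ± 0.0155. In these 3 the knockout libraries lay above the WT libraries. Pdgfra was at 0.383 ± 0.0423 and 0.121 ± 0.0452 TPM, Col5a2 at 0.477 ± 0.155 and 0.245 ± 0.0506, and Lum at 0.123 ± 0.0483 and 0 TPM. In Pdgfra, Col5a2 and Lum the knockout libraries lay below the WT libraries. Col1a1 was at 0.486 ± 0.0286 and 0.518 ± 0.0684 TPM and Col1a2 at 0.181 ± 0.0399 and 0.132 ± 0.0327 TPM, with overlapping groups. The fibroblast matrix genes Fn1 (fibronectin) and Sparc had log2 fold changes of -1.73 and -1.21. Fn1 went from 92.5 ± 0.536 TPM to 27.2 ± 0.736 TPM, and Sparc from 219 ± 4.26 TPM to 94.0 ± 2.47 TPM. Pdgfrb, a growth factor receptor of pericytes and fibroblasts, fell from 2.58 ± 0.177 to 0.583 ± 0.0549 TPM (log2 fold change -1.18, adjusted p = 2.43e-07, or -1.97 and -0.44 with pseudocounts of 0.1 and 5 TPM).

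**Figure D3:**
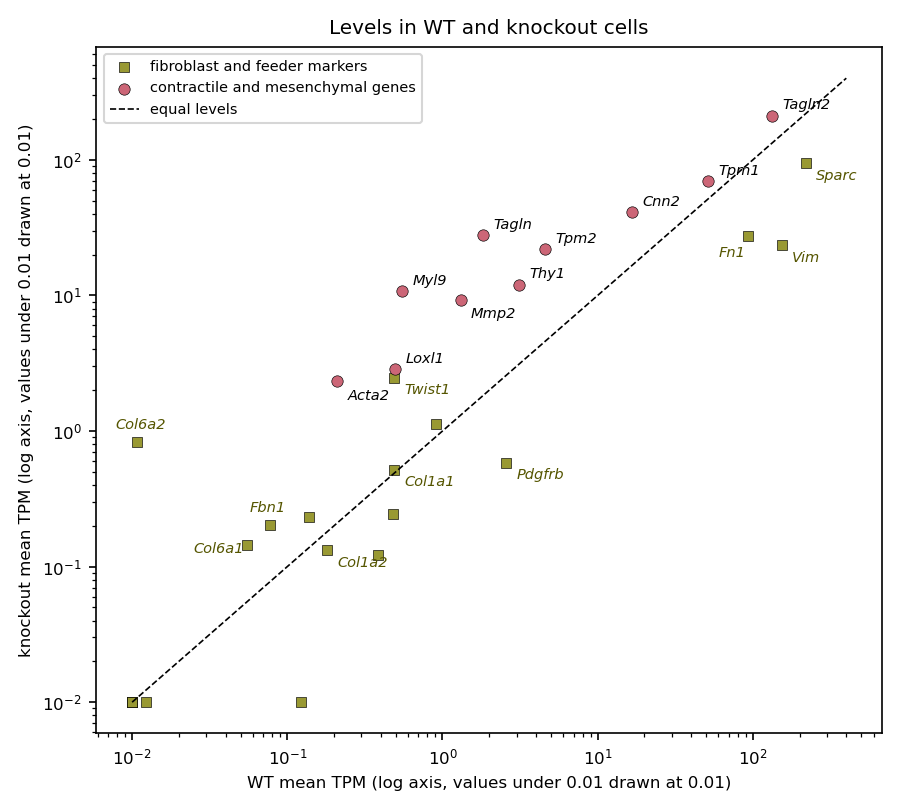
Mean TPM over 3 libraries in WT (horizontal, log axis) and knockout cells (vertical, log axis) of the 10 genes (circles) and 20 fibroblast markers (squares), with a dashed line of equal levels. The 10 genes lie above the line, as do Twist1 and, at low levels, Col6a1, Col6a2 and Fbn1 among the squares, while Vim, Fn1, Sparc and Pdgfrb lie below it and Col1a1 and Col1a2 lie near it at low levels. The squares of Pdgfra, Col5a2 and Lum, which carry no name, also lie below the line at low levels.

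Regulators of the epithelial-mesenchymal transition were mixed as well, with 3 called higher and 2 lower of 6 tested among 12, and 2 that passed through a single genotype. These are 50.0% and 33.3% of the 6, against 28.3% and 54.8% of all tested genes. Twist1 passed only through the knockout libraries and Tcf4 only through the WT libraries, so both had to differ. Twist1, a mesenchymal transcription factor, rose from 0.485 ± 0.151 to 2.48 ± 0.0884 TPM (log2 fold change 1.23, adjusted p = 7.09e-07, or 2.17 and 0.45 with pseudocounts of 0.1 and 5 TPM). Tcf4, a basic helix-loop-helix factor, fell from 4.51 ± 0.240 to 0.772 ± 0.0124 TPM (log2 fold change -1.64, or -0.72 with a pseudocount of 5 TPM). Of the epithelial adhesion genes, Epcam rose from 40.1 ± 2.33 to 106 ± 1.88 TPM (log2 fold change 1.38) and Cdh1, E-cadherin, fell from 119 ± 1.51 to 77.7 ± 0.977 TPM (log2 fold change -0.61, or -0.40 with median-of-ratios scaling). Snai2, Zeb2 and Twist2, further mesenchymal transcription factors, were below 1 TPM in every library. Without overlap, Snai2 went from 0.368 ± 0.0953 to 0.0800 ± 0.0754 TPM, and Zeb2 the other way, from 0 to 0.0353 ± 0.0306 TPM. Zeb1, which did not pass the filter, went from 0.996 ± 0.119 to 0.119 ± 0.0365 TPM, also without overlap. Snai1 was at 5.52 ± 0.627 and 5.21 ± 0.504 TPM and was not called (log2 fold change -0.07, adjusted p = 0.455).

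Genes of striated muscle, the other contractile tissue, gave 8 higher and 3 lower of 14 tested among 20, with a median of 0.83. The shares were 57.1% higher and 21.4% lower, against 28.3% and 54.8% of all tested genes. Of the 14, 5 had passed through a single genotype and so had to differ. These were Acta1, Tnnc2, Myh6 and Myl3, called higher, and Tnnt2, called lower. Among the others, 4 were called higher and 2 lower. Myl4, an atrial and embryonic light chain, rose from 1.75 ± 0.167 to 8.53 ± 0.0739 TPM (log2 fold change 1.79, adjusted p = 9.31e-09, or 1.00 with a pseudocount of 5 TPM). Tnni1, slow troponin I, fell from 49.8 ± 1.56 to 1.16 ± 0.365 TPM and Tnnt2, cardiac troponin T, from 8.53 ± 0.906 to 0.883 ± 0.0165 TPM (log2 fold change -2.34, or -1.20 with a pseudocount of 5 TPM). Myod1 and Myog, which specify skeletal muscle, were below 1 TPM in every library.

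The labelled cell type was checked against its markers. All 12 embryonic stem cell markers were tested, 6 called higher and 6 lower, or 50.0% each against 28.3% and 54.8% of all tested genes, and their summed TPM ranged from 5367 to 5528 in WT and from 6782 to 6939 in knockout libraries. Utf1 and Lin28a were the higher ones with the smallest p, with log2 fold changes of 3.63 and 2.05, and Klf4 and Nanog the lower ones, at -1.96 and -1.39. Of 12 markers of extraembryonic endoderm, a lineage that can arise in stem cell cultures, 7 were tested, 4 called higher (57.1%) and 3 lower (42.9%), with a median of 1.37. Of the 7, Dab2 had passed the filter only through the knockout libraries and so had to differ. The others gave 3 higher and 3 lower. Gata6, Sox17 and Sox7, defining factors of that lineage, were below 1 TPM in every library. Sox7 went from 0.0543 ± 0.0782 to 0.563 ± 0.132 TPM without overlap, while the groups of Gata6 and of Sox17 overlapped. Gata4, at 0.821 ± 0.112 and 0.990 ± 0.129 TPM with overlapping groups, was not tested. The matrix genes Lamb1 and Col4a2 of the lineage rose by 1.87 and 1.40 on the log2 scale, and Lama1 fell by 1.63. With a pseudocount of 5 TPM, the changes were 0.65 for Col4a2 and -1.08 for Lama1. The summed TPM of the 12 was at least 262 in WT libraries and 149 to 154 in knockout libraries. Sparc, which is also a fibroblast marker, carried that fall, and without it the other 11 summed to between 46.2 and 48.2 TPM in WT and between 57.0 and 57.5 TPM in knockout libraries. The ratio of the means was 3.48 for Col4a1, 4.13 for Col4a2, 4.24 for Lamb1 and 8.37 for Dab2, an endocytic adaptor of that lineage. The part of such cells in the rise of the 10 genes was not tested.

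**Figure D4:**
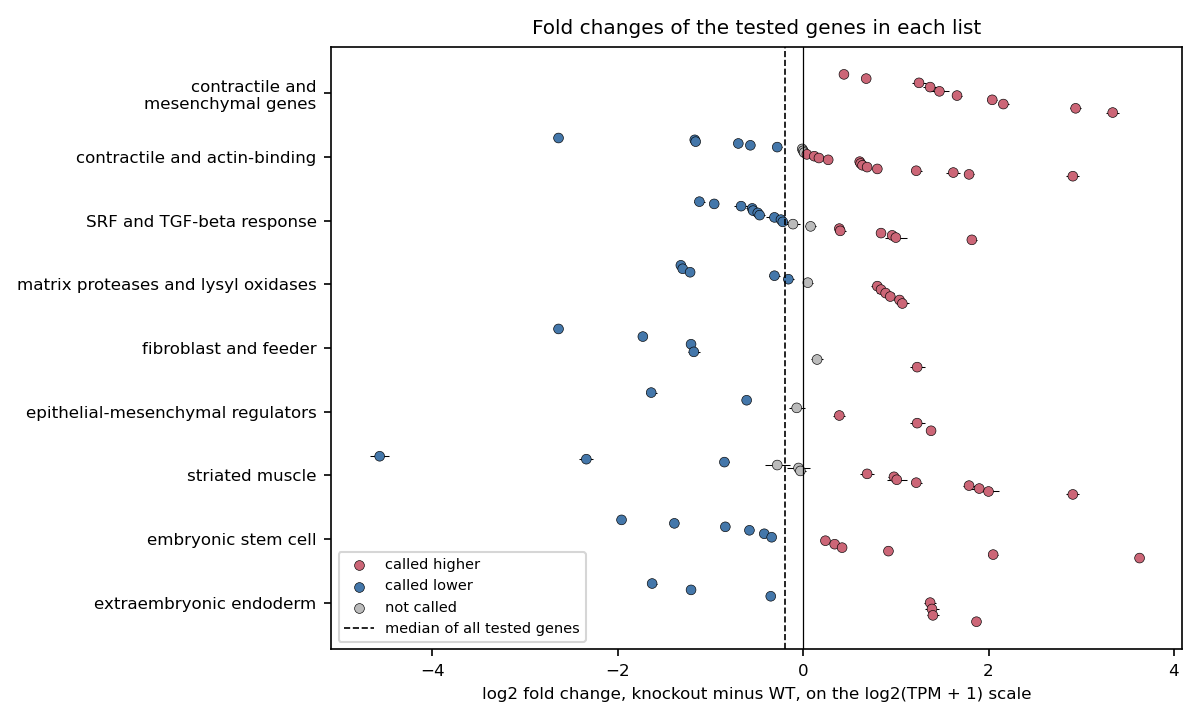
Log2 fold changes (knockout minus WT, log2(TPM + 1) scale) of the tested genes of each list as points with bars of 1 standard error, coloured by call, and a dashed line at the median of all tested genes, -0.20. The 10 genes all lie to the right of 0, from 0.44 to 3.34, while each other list has called genes on both sides of 0.

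The genes with values most like those of Tagln over the 6 libraries were sought by Euclidean distance between log2(TPM + 1) values. The nearest 5 named genes were Fkbp10, a chaperone of collagen, at a distance of 0.214, Calca, the gene of calcitonin and CGRP, at 0.268, Gap43, a growth cone protein, at 0.424, Lmo4, a LIM-only cofactor, at 0.575, and Etv4, an ETS factor, at 0.656. Fkbp10 went from 1.71 ± 0.218 to 29.1 ± 0.961 TPM. Within the 10 genes, Tpm2 was nearest to Tagln, at a distance of 1.81 and rank 52 among the tested genes, followed by Thy1 at 2.21 and rank 86. With 3 libraries per genotype, this distance mostly orders genes by their level in each genotype.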

How the data were processed

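PolyA RNA of 3 WT and 3 knockout libraries was analysed, grouped by sample title. The authors deposited TPM, 1 RefSeq transcript per gene, and lists of log2 fold changes with p-values. Per the submitters' processing notes, Trim Galore, HISAT2, HOMER and limma were used with build mm9. Which step each did, and the strand setting, are not given in the sources used here. Depth is unknown.

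From the TPM, log2(TPM + 1) was fitted with limma 3.58.1 in R 4.3.3 (lmFit, eBayes with trend). Genes that reached 1 TPM in 3 or more libraries were tested, two-sided, with Benjamini-Hochberg adjustment. On simulated data for this comparison with 12196 genes, 44.0, 86.0, 98.0 and 100% of 50 genes each with log2 changes of 0.25, 0.5, 1 and 2 were recovered, with 7 false calls of 171. Only 200 genes were changed there, all with a WT mean of log2(TPM + 1) above 1, which leaves out Acta2, Myl9 and Loxl1. In the data 3446 genes were called higher and 6681 lower, so these rates do not carry over to the real calls. Python 3.11.15, pandas 2.3.3 and matplotlib 3.10.9 were used for the rest. Named genes were the 10 genes, their family members, Bach1, at most 4 called genes per list with the smallest p, and the 5 genes most like Tagln. Genes named as below 1 TPM in every library were picked with their values seen. So were the list genes Zeb1, Snai1, Gata4, Timp2, Timp3, Col4a1 and Dab2. The genes, lists and tests were chosen with earlier results of these data known. Peaks were not used, since they lie on mm9 and the gene positions given were GRCm38. P-values measure the spread between these libraries.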

Additional observations from a re-analysis of the deposited data

How the results depend on the processing

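All 10 contractile and mesenchymal genes kept their direction and call in 138 of 138 combinations of gene and alternative, among them pseudocounts of 0.1 and 5 TPM, quantile normalization, median-of-ratios scaling and every fit without 1 library. Acta2 and Loxl1 drop out where a mean of at least 5 TPM is required. That filter left 2112 genes called higher and 4430 lower, because fewer genes are tested. It also left 4 lower genes in the SRF and TGF-beta list, 2 higher in the matrix list, 0 higher in the fibroblast list, 1 higher and 1 lower among epithelial-mesenchymal regulators, 3 higher in striated muscle and 1 higher in extraembryonic endoderm. Without a filter, more low genes are tested, and the fibroblast list had 4 higher and 7 lower, the epithelial-mesenchymal list 4 lower and striated muscle 13 higher. The fibroblast list had 2 higher genes with quantile normalization, with median-of-ratios scaling and without the variance trend, and 1 to 2 without 1 library. Calls that were higher made up 34.0% as deposited, 47.6% with quantile normalization and 48.5% with median-of-ratios scaling. Actb turned to -0.01 with quantile normalization, and Myl12a, which was not called, ranged from -0.03 to 0.03 without 1 library, with -0.03 without WT replicate 3 and -0.01 without knockout replicate 2. The cause was not tested.

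Deviations of same-numbered libraries correlated at -0.00302, 0.0696 and -0.000791, so no shift shared by same-numbered libraries was seen. These values do not show whether such libraries were prepared together. With the replicate number as a block, 3457 genes were called higher and 6692 lower, and the 10 genes were all called higher. Tagln3 was no longer called under the block, at 0.17 (adjusted p = 0.0507). The planned count of peaks at promoters was not run.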
